A study of Mus musculus with 11 samples.

Results

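The 10 genes Myh6, Myl7, Myl4, Myl2, Sln, Nppa, Tnnt2, Tnni3, Actc1 and Mybpc3, which encode proteins of heart muscle, were followed across 11 RNA-sequencing libraries of mouse airway tissue. They were selected on their measured levels in these same libraries, by matching their Ensembl identifiers to gene symbols, and made up 10 of 21899 genes in the table. Their levels and their differences between groups are therefore given as a description, with no test. A further 70 genes of heart muscle, which the selection did not name, were compared between the groups with a test.

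Heart muscle contracts when calcium released from the sarcoplasmic reticulum binds the troponin complex and lets myosin heads pull on actin. The muscle of the atria uses its own myosin light chains, the calcium pump inhibitor sarcolipin and the hormone atrial natriuretic peptide, whereas ventricular muscle uses Myl2. In mice, sleeves of atrial-type muscle also run from the left atrium along the pulmonary veins into the lung, so that tissue taken near the airway and the lung root can contain heart muscle cells.

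The 3 groups were PBS with 3 libraries (PBS 1 to 3), OVA/LPS/Vehicle with 4 libraries (OVA/LPS/Vehicle 12, 34, 56 and 78) and OVA/LPS/GGsTop with 4 libraries (OVA/LPS/GGsTop 1 to 4). All mice were wild type (WT) male BALB/c animals, aged 6 to 8 weeks. Mice of both OVA/LPS groups were sensitised with ovalbumin (OVA) in alum by the intraperitoneal route on days 0 and 7, were given OVA through the nose on days 14 to 17 and lipopolysaccharide (LPS), a bacterial cell wall component, on days 19 and 21. GGsTop, an inhibitor of γ-glutamyl transferase, was then instilled into the trachea at 0.5 mg/kg on days 21 to 23, or its vehicle was, and tissue was taken on day 25. Nonsensitised PBS mice received PBS alone. The labels call the tissue trachea, while the study describes bluntly dissected airway from which the trachea was left out, and this conflict is not resolved here. It was not given in the sources used here whether a library was made from 1 mouse or from a pool, so the p-values measure the spread between libraries, part of which may be technical.

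Levels are FPKM, that is fragments scaled to exon length and to the total of the library. The length counts all annotated exons of a gene, for example 7752 bases for Tnnt2, 4637 for Myl4 and 590 for Myl7. Levels of different genes therefore depend on these lengths and can be set side by side only roughly, while 1 gene can be compared between libraries. Each library held 14513129 to 18632379 fragments, as recovered from the FPKM steps, and 1 fragment in 1 kilobase was worth 0.0537 to 0.0689 FPKM. The airway marker Scgb1a1 was at 26145 to 47904.8 FPKM, and Sftpc of the alveolar epithelium was at 3541 to 12502.5 FPKM in every library, whereas the cartilage genes Acan and Matn1 were listed at 0 in PBS 3, OVA/LPS/GGsTop 1 and OVA/LPS/GGsTop 3. The dependence of the levels on the GC content of genes also differed between libraries and groups, with a slope of 0.533 log2 units per 10 GC points in PBS 3, between 0.046 and 0.108 in 6 libraries, and -0.261 to -0.190 in OVA/LPS/Vehicle, all 4 of which lay below every library of the other groups. A correction for GC content lowered the genes called from 5327 to 2904 between OVA/LPS/Vehicle and PBS and from 1220 to 56 between OVA/LPS/GGsTop and OVA/LPS/Vehicle. The 5 thyroid and parathyroid genes summed to 98.2, 269 and 540 FPKM in OVA/LPS/Vehicle 12, 34 and 56 and to at most 2.07 FPKM in the other libraries.

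Heart muscle RNA was present in all groups, but its amount differed widely between libraries of the same group. The 10 genes together accounted for 0.0319% of all FPKM in PBS 1, 0.633% in PBS 2 and 0.0451% in PBS 3. In OVA/LPS/Vehicle they took 0.277% to 0.445%, and in OVA/LPS/GGsTop 0.309%, 0.707%, 0.190% and 0.803% in libraries 1 to 4. PBS 1 and PBS 3 thus held the least, most of it Actc1, while PBS 2 held more than any OVA/LPS/Vehicle library. In whole tissue, fewer heart muscle cells and less RNA per cell cannot be told apart.

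Myl7, the atrial regulatory light chain of myosin, had the highest FPKM of the 10 genes in 9 of 11 libraries, with the shortest annotated exon length of them, 590 bases. Its level was 1.01, 767 and 25.8 FPKM in PBS 1 to 3, then 533, 382, 658 and 587 FPKM in OVA/LPS/Vehicle 12, 34, 56 and 78, and 352, 937, 225 and 1081 FPKM in OVA/LPS/GGsTop 1 to 4. The PBS libraries spanned the values of OVA/LPS/Vehicle, whereas OVA/LPS/GGsTop 2 and 4 stood above every library of the other groups and 1 and 3 stood below every OVA/LPS/Vehicle library. By group the mean was 265 ± 435 FPKM (SD, n = 3) in PBS, 540 ± 117 FPKM (SD, n = 4) in OVA/LPS/Vehicle and 649 ± 423 FPKM (SD, n = 4) in OVA/LPS/GGsTop.

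Myh6 encodes the α-myosin heavy chain, the motor protein of adult mouse heart muscle. It was at 1.45, 321 and 12.6 FPKM in the PBS libraries, at 192, 122, 171 and 192 FPKM in OVA/LPS/Vehicle, and at 179, 376, 93.9 and 435 FPKM in OVA/LPS/GGsTop and, like Myl7, was highest in PBS 2 and in OVA/LPS/GGsTop 2 and 4 and lowest in PBS 1 and 3. Mybpc3, the myosin-binding protein C of the heart, was lower throughout, at 0.207, 20.3 and 0.761 FPKM in PBS, 8.802, 5.23, 11.3 and 9.83 FPKM in OVA/LPS/Vehicle, and 6.48, 28.9, 2.999 and 23.4 FPKM in OVA/LPS/GGsTop. For both genes PBS 2 was above every OVA/LPS/Vehicle library and PBS 1 and 3 below, so that these groups overlapped. Myh6 lies beside its close paralog Myh7, and how reads shared by the copies were assigned is not given in the sources used here.

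Myl4, the essential light chain of atrial myosin, had 0.501, 137 and 4.398 FPKM in PBS, 101, 79.0, 141 and 117 FPKM in OVA/LPS/Vehicle, and 65.0, 161, 38.5 and 181 FPKM in OVA/LPS/GGsTop. Sln encodes sarcolipin, which inhibits the sarcoplasmic calcium pump, and its levels were 0.151, 115 and 3.01 FPKM in PBS, 73.4, 57.5, 104 and 78.7 FPKM in OVA/LPS/Vehicle, and 49.7, 146, 22.4 and 142 FPKM in OVA/LPS/GGsTop. Both genes repeated the order of Myl7 closely. Over the 11 libraries the Pearson correlation of Myl4 and Sln on the log2(FPKM + 1) scale was 0.998, the highest of the 36 pairs among the 9 genes whose mean reached 0.5 FPKM.

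The troponin genes Tnni3 and Tnnt2 encode the inhibitory and the tropomyosin-binding subunit of the calcium switch of the thin filament. Tnni3 was at 2.74, 125 and 5.07 FPKM in PBS, 101, 79.2, 145 and 111 FPKM in OVA/LPS/Vehicle, and 62.9, 137, 38.4 and 160 FPKM in OVA/LPS/GGsTop. Tnnt2 was at 3.25, 70.8 and 4.57 FPKM, at 58.9, 49.7, 78.6 and 63.5 FPKM, and at 53.7, 98.0, 28.1 and 114 FPKM in the same order. In PBS 1, where Myl7 was at 1.01 FPKM, both troponin genes were therefore above Myl7.

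Actc1, the cardiac form of α-actin, behaved unlike the rest in the libraries poor in heart muscle RNA. It was at 86.7, 395 and 87.0 FPKM in PBS, at 248, 192, 248 and 260 FPKM in OVA/LPS/Vehicle, and at 225, 373, 172 and 505 FPKM in OVA/LPS/GGsTop. PBS 1 and PBS 3 thus kept 86.7 and 87.0 FPKM of Actc1, and these were the libraries in which Actc1 and not Myl7 was the highest of the 10 genes. Actc1 shares most of its coding sequence with the skeletal actin gene Acta1, which was at 0.0864 FPKM in PBS 1 and 3.28 FPKM in PBS 3. The smooth muscle actin gene Acta2, another close copy, was at 322 and 358 FPKM there, and its part in the Actc1 level was not tested.

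Myl2, the regulatory light chain of ventricular muscle, was close to 0 in every library. It had 5, 3 and 1 fragments in PBS, 3, 0, 1 and 6 in OVA/LPS/Vehicle, and 0, 4, 1 and 2 in OVA/LPS/GGsTop, at most 0.184 FPKM. A count of 0 allows up to 3 fragments, which was 0.0973 FPKM in OVA/LPS/Vehicle 34 and 0.102 FPKM in OVA/LPS/GGsTop 1. Its mean of 0.0778 FPKM was under the minimum of 0.5 FPKM used for the tests, so 9 of the 10 genes entered the fit. The nearest genes above that minimum were Mybpc3, with a mean of 10.8 FPKM, and Nppa, with 31.8 FPKM.

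**Figure D1:**
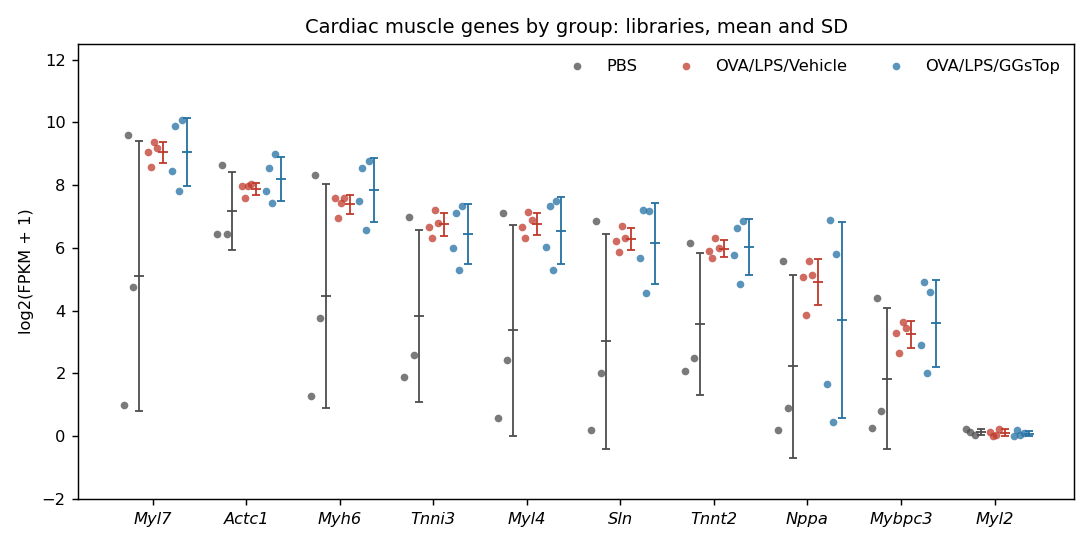
Level of each of the 10 genes as log2(FPKM + 1) on the vertical axis, with 1 point per library, and the mean and SD of each group as a bar; genes are ordered along the horizontal axis and groups are coloured. PBS 1 and PBS 3 sit far below PBS 2, OVA/LPS/Vehicle libraries lie close together, OVA/LPS/GGsTop libraries spread around them, and Myl2 stays near 0.

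Other genes that separate atrial from ventricular muscle were set beside these values. Mybphl, a myosin-binding protein of the atria, was at 0 and 1.14 FPKM in PBS 1 and 3 and at 14.9 to 69.95 FPKM in the remaining libraries. The ventricular transcription factor gene Irx4 had 1 fragment in OVA/LPS/Vehicle 56 and 0 in the others. Myl3, the essential light chain of ventricular and slow muscle, reached at most 16.1 FPKM, against 1081 FPKM for Myl7, and Myh7 reached at most 5.26 FPKM. The atrial and ventricular lists share Myl7, Myl4, Sln, Nppa and Myl2 with the 10 genes. Without them, the 7 remaining atrial genes summed to 22.4 and 26.5 FPKM in PBS 1 and PBS 3 and to 37.4 to 111 FPKM in the other 9 libraries, and the 4 remaining ventricular genes to 4.33 and 6.49 FPKM and to 10.3 to 19.96 FPKM. The defining ventricular markers Myl2 and Irx4 were at or near 0. Bmp10, a secreted factor of the right atrium, was listed at 0 in 8 libraries, and had 4 fragments in PBS 2, 22 in PBS 3 and 91 in OVA/LPS/GGsTop 2.

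The 9 measured genes kept similar ratios to each other wherever heart muscle RNA was present, with Nppa and Actc1 as exceptions. Expressed as a percent of Myl7 in the 10 libraries other than PBS 1, Myl4 was at 16.7% to 21.4%, Tnni3 at 14.6% to 22.1%, Tnnt2 at 9.23% to 17.7%, Sln at 9.96% to 15.8%, Mybpc3 at 1.33% to 3.09% and Myh6 at 26.03% to 50.8%. Actc1 ranged from 37.7% to 76.3% in the 8 OVA/LPS libraries but was at 337% of Myl7 in PBS 3. Across the 8 OVA/LPS libraries the FPKM of Myl7 varied 4.80-fold, while the ratio of Myl4 to Myl7 varied 1.28-fold. The 28 pairs of genes without Nppa correlated at 0.885 to 0.998 (Pearson, 11 libraries, median 0.969) and at 0.794 to 0.993 within the 8 OVA/LPS libraries. These points share their library, hence its depth and its amount of heart muscle, so the correlations are given as a description.

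Nppa, which encodes atrial natriuretic peptide, a hormone that atrial muscle stores and releases, did not keep this ratio. Its level was 0.153, 46.8 and 0.869 FPKM in PBS, 32.7, 13.4, 46.6 and 34.3 FPKM in OVA/LPS/Vehicle, and 2.15, 118, 0.366 and 55.2 FPKM in OVA/LPS/GGsTop 1 to 4. In OVA/LPS/GGsTop 1 and 3 Nppa was at 0.611% and 0.163% of Myl7, against 3.36% to 12.6% in the 8 other libraries with Myl7 above that of PBS 1. Those ratios rested on 28 and 5 fragments of Nppa, with exact Poisson 95% intervals of 0.406% to 0.883% and 0.0529% to 0.380%, which cover counting error only. The ratio of Nppa to Myl7 varied 77.1-fold over the 8 OVA/LPS libraries, and for the other 7 members in the fit that ratio varied at most 2.32-fold. The 8 pairs with Nppa correlated at 0.777 (with Myh6) to 0.911 (Pearson, 11 libraries, median 0.833). Within the 8 OVA/LPS libraries they correlated at 0.733 to 0.957 (median 0.903). By Spearman's rank correlation these pairs were at 0.909 (with Myh6) to 0.991 (with Sln) over the 11 libraries. Nppa thus ordered the libraries much as the other genes did, although its ratio to Myl7 was not kept.

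Nppb, the gene of brain natriuretic peptide, lies next to Nppa and went the same way, although it was not among the 10 genes. It was at 0.935, 14.6 and 0.206 FPKM in PBS, 9.58, 3.16, 13.3 and 7.82 FPKM in OVA/LPS/Vehicle, and 0, 17.5, 0.0812 and 7.44 FPKM in OVA/LPS/GGsTop. OVA/LPS/GGsTop 1 had no Nppb fragment, for which the exact Poisson 95% interval reached 0.0891% of Myl7. OVA/LPS/GGsTop 3 had 1 fragment, for which that interval reached 0.201%. The other 8 libraries compared were at 0.688% to 2.03%. Corin, the protease that activates the natriuretic peptides, varied 2.26-fold relative to Myl7 over the OVA/LPS libraries, within the range of the muscle genes, and was at 1.82, 6.60, 0.904 and 6.62 FPKM in OVA/LPS/GGsTop. Npr1, their receptor, was at 38.5, 23.3 and 44.2 FPKM in PBS, 16.6 to 18.1 FPKM in OVA/LPS/Vehicle and 32.2, 23.6, 39.6 and 18.6 FPKM in OVA/LPS/GGsTop, so that its highest levels were in PBS 1, PBS 3 and OVA/LPS/GGsTop 3, the libraries with the lowest sums of the 10 genes. OVA/LPS/GGsTop 1 and 3 also had low sums of 6 fat markers, 37.5 and 25.6 FPKM against 225 and 372 FPKM in libraries 2 and 4, and of 5 cartilage markers, 0.328 and 0.256 FPKM against 14.7 and 55.4 FPKM. PBS 3 had similarly low fat and cartilage sums, 37.8 and 0.470 FPKM, with Nppa at 3.36% of Myl7 on 14 fragments. What part the dissected tissue had in the Nppa ratio was not tested.

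**Figure D2:**
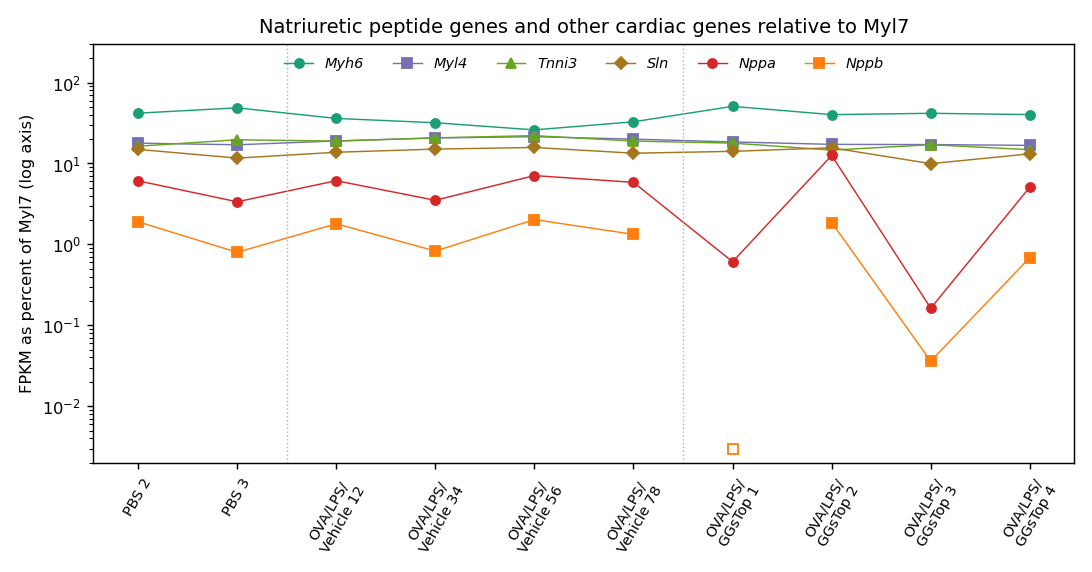
FPKM of 6 cardiac genes as a percent of Myl7 on a logarithmic vertical axis, for each library along the horizontal axis except PBS 1, whose Myl7 was at 1.01 FPKM; the open square marks the library in which Nppb is listed at 0. Myh6, Myl4, Tnni3 and Sln stay in narrow bands, while Nppa and Nppb drop in OVA/LPS/GGsTop 1 and 3.

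Because Nppa and Nppb were low relative to Myl7 in the same libraries, the 250 bases before their annotated starts are shown with those of Myl7, the reference of the ratio (RefSeq, GRCm38.p6, sense orientation, 5′ to 3′). Capitals mark GATAA, the core bound by GATA factors, AAGTG, the core bound by Nkx2-5, and the run TATAAA, each on both strands. They also mark the CArG box bound by serum response factor. Myl7 is from chr11:5898783-5899032 on the minus strand, Nppa from chr4:148000472-148000721 and Nppb from chr4:147985650-147985899, both on the plus strand.
Myl7: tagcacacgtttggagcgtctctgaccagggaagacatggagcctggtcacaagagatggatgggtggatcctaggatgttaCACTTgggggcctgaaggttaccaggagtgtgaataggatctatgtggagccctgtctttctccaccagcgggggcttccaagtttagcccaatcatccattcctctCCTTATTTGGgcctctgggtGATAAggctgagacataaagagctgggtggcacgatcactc
Nppa: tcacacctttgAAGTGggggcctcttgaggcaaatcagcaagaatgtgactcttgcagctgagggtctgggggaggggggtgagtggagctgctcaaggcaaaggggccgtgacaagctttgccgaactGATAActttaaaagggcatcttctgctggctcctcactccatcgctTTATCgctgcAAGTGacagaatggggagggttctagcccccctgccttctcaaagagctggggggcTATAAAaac
Nppb: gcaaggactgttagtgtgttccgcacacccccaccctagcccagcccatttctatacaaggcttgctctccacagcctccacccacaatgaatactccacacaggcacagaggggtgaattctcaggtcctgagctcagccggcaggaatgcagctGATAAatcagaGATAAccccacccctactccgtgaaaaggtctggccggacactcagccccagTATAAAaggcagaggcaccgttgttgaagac
Nppa and Nppb each held 2 GATAA matches and 1 TATAAA match, whereas Myl7 held 1 GATAA match, no TATAAA match and 1 CArG box. The TATAAA match lay 9 to 4 bases before the annotated start in Nppa and 31 to 26 bases before it in Nppb. AAGTG matched 2 times in Nppa, 1 time in Myl7 and 0 times in Nppb. Of all 32536 promoter windows of that length, 22.5% held GATAA, 40.6% AAGTG, 12.3% TATAAA, 1.48% a CArG box and 2.89% a MEF2 site. RefSeq windows were matched for 9 of the 10 genes and searched for 8 of them, since there was no window for Sln and Myl2 was left out as near 0 in every library. Over these 8 genes, GATAA was found in 4, AAGTG in 5, TATAAA in 1 (Nppa), a CArG box in 2 (Actc1 and Myl7) and a MEF2 site in 1 (Mybpc3). A match is a run of letters, not a bound site.

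The first comparison, OVA/LPS/Vehicle against PBS, asks what the exacerbation model changes. All 9 measured genes had a higher mean in OVA/LPS/Vehicle, by 0.71 ± 0.50 (Actc1) to 3.94 ± 1.45 (Myl7) on the log2(FPKM + 1) scale (limma estimate ± standard error), with Myl4 at 3.38 ± 1.16, Sln at 3.26 ± 1.22, Tnni3 at 2.92 ± 0.97 and Nppa at 2.68 ± 1.57. These are differences of log values, and they understate the change of low genes. For no gene were the groups separate, since PBS 2 was above at least 1 OVA/LPS/Vehicle library throughout. The mean over the 10 genes was 3.48 ± 2.58 (SD, n = 3) in PBS and 5.84 ± 0.33 (SD, n = 4) in OVA/LPS/Vehicle, a difference of 2.36 that became 1.33 without PBS 1, 3.81 without PBS 2 and 1.93 without PBS 3. None of the 9 genes had groups that did not overlap, against 44.1% of all genes, and nothing is read from this count, as the genes were chosen on these values.

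The 70 other cardiac genes could be tested, although they come from the same libraries and were listed with earlier results known, so they are not independent evidence of a direction. Of the 65 that were measured above the minimum, 17 rose and 4 fell in OVA/LPS/Vehicle in limma with Benjamini-Hochberg adjustment over 14004 genes, where 15.9% of all genes were called higher and 22.1% lower. On the log2 scale 57 had a higher mean, against 48.9% of all genes, and the median difference was 1.18, against -0.01 over all genes tested. The count rested on single PBS libraries, with 53 genes called without PBS 2, 6 without PBS 1 and 2 without PBS 3. It was 54 when limma's array weights gave less weight to unusual libraries. All genes called moved too, from 5327 to 6440, 4417, 3064 and 7916 in the same order. With a correction for GC content 9 were called, and leaving out 1 OVA/LPS/Vehicle library gave 5 to 9, where all genes called were 2904 and 3782 to 4634. With libraries set to the same FPKM total, which moved the median of all genes to -0.15, 14 of the 65 rose and 6 fell, and the calls over all genes went from 2231 higher and 3096 lower to 1232 higher and 4570 lower.

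Among the sarcomere genes 7 of 24 rose and 1 fell. Myoz2, a Z-disc protein that binds calcineurin, rose by 2.85 (adjusted p = 0.0274), and Myl3 by 2.14 (adjusted p = 0.0162, 0.422, 7.98 and 0.184 FPKM in PBS and 6.63 to 16.1 FPKM in OVA/LPS/Vehicle). Myl3 correlated with the 10 genes at 0.85 over the 11 libraries but at 0.009 over the 8 OVA/LPS libraries, where its ratio to Myl7 varied 6.23-fold. Tcap, which anchors titin at the Z-disc, rose by 2.97 (adjusted p = 0.0414) and Tnnc1, the calcium-binding troponin subunit, by 2.98 (adjusted p = 0.0455). Myh7, the slow myosin heavy chain, fell by 0.65 (adjusted p = 0.0272) and did not move with the 10 genes over the libraries (Pearson r = -0.16). Its level was 2.37, 2.81 and 5.26 FPKM in PBS and 1.37 to 1.97 FPKM in OVA/LPS/Vehicle, and the groups did not overlap.

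Of 17 measured genes of calcium handling, ion channels and membrane, 2 rose and 1 fell. Trdn, which anchors the calcium release channel, rose by 1.63 (adjusted p = 0.0113), from 0.0781, 2.21 and 0.0344 FPKM in PBS to 3.33 to 4.96 FPKM in OVA/LPS/Vehicle. Its correlation with the 10 genes was 0.85 over the 11 libraries and 0.64 over the 8 OVA/LPS libraries, where its ratio to Myl7 varied 4.66-fold. Pln, the phospholamban that restrains the calcium pump, rose by 2.10 (adjusted p = 0.0229), and for both genes each OVA/LPS/Vehicle library was above PBS 2, unlike any of the 10 genes. Atp2a2, the calcium pump itself, was at 47.3, 262 and 51.1 FPKM in PBS and at 155 to 207 FPKM in OVA/LPS/Vehicle and did not pass (adjusted p = 0.116). Gja5, a gap junction gene of atrial muscle that arterial endothelium also uses, fell by 0.75 (adjusted p = 0.00907), from 17.1 to 23.3 FPKM in PBS to 8.86 to 13.6 FPKM in OVA/LPS/Vehicle. The sum of 6 endothelial markers was 526 to 842 FPKM in PBS and 421 to 473 FPKM in OVA/LPS/Vehicle, and its part in the Gja5 and Npr1 results was not tested.

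Of 12 measured regulators 4 rose and 1 fell. Shox2, a transcription factor of the sinus node and the pulmonary vein muscle, rose by 1.03 (adjusted p = 0.0240), and was listed at 0 in PBS 1 and 3, at 1.31 FPKM in PBS 2 and at 1.45 to 1.95 FPKM in OVA/LPS/Vehicle. The RNA-binding splicing factor Rbm24 rose by 1.47 (adjusted p = 0.0364). Tbx5, which both heart and lung mesenchyme use, fell by 0.33 (adjusted p = 0.0128), from 10.8 to 11.9 FPKM in PBS to 8.26 to 9.33 FPKM in OVA/LPS/Vehicle. Of 4 measured genes of the natriuretic peptide system, Npr1 fell by 0.92 (adjusted p = 0.0157) and Nppb differed by 1.38 ± 1.09 (adjusted p = 0.324). Of 8 genes of energy metabolism 4 rose, among them Mb, the oxygen-binding myoglobin (3.48, adjusted p = 0.0486), Fabp3, a fatty acid carrier (1.98, adjusted p = 0.0365), and the respiratory chain subunit gene Cox7a1 (2.33, adjusted p = 0.0277). All p-values here are from limma with Benjamini-Hochberg adjustment. Every one of these calls was lost without PBS 3, except for Tbx5 and Gja5.

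The second comparison, OVA/LPS/GGsTop against OVA/LPS/Vehicle, asks what the inhibitor changes in the model. Among the 9 genes in the fit 5 had a higher and 4 a lower mean of log2(FPKM + 1) in OVA/LPS/GGsTop, whereas the mean FPKM was higher for 8 of 9, all but Tnni3. The log2 differences ran from -1.21 ± 1.46 (Nppa) through 0.01 ± 1.34 (Myl7) to 0.46 ± 1.13 (Myh6). Each difference was smaller than its standard error. The mean over the 10 genes was 5.76 ± 1.147 (SD, n = 4) in OVA/LPS/GGsTop and differed from that of OVA/LPS/Vehicle by -0.07, with -0.39 to 0.37 when 1 library was left out. The SD of OVA/LPS/GGsTop, 1.147 against 0.33, came from 2 libraries on either side of the OVA/LPS/Vehicle range. The labels number the OVA/LPS/Vehicle libraries 12, 34, 56 and 78, and if each was a pool of mice, which is not given in the sources used here, its SD would be one of pools and would understate the spread between mice. Of the 9 genes 0 had separate groups, against 29.7% of all genes. With standard errors of 0.46 to 1.46, these differences do not show that the groups were alike.

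Among the 65 other cardiac genes 3 rose and 0 fell, where 6.9% of all genes were called higher and 1.81% lower, with a median of 0.01 against 0.03 over all genes. The 3 genes were Tbx5 (0.37, adjusted p = 0.0234), Kcnq1, a repolarising potassium channel (0.51, adjusted p = 0.0399), and Myh7 (0.70, adjusted p = 0.0422). Tbx5 was at 11.2 to 12.3 FPKM in OVA/LPS/GGsTop and Kcnq1 at 6.33 to 9.28 FPKM against 4.89 to 5.49 FPKM in OVA/LPS/Vehicle, and for none of the 3 did the groups overlap. Their correlations with the mean of the 10 genes were -0.14, 0.10 and -0.16, so they varied apart from the heart muscle genes. The calls of Kcnq1 and Myh7 were lost when any 1 of the 8 libraries was left out, that of Tbx5 in 6 of 8 cases, and with a correction for GC content 0 of the 65 genes were called. Setting libraries to the same median left Tbx5 alone called, and moved the calls over all genes from 966 higher and 254 lower to 344 and 354. Tbx5 and Myh7 share the OVA/LPS/Vehicle libraries with the comparison before, in which they fell.

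The third comparison, OVA/LPS/GGsTop against PBS, shares its groups with the other two. All 9 measured genes had the higher mean in OVA/LPS/GGsTop, from 1.02 ± 0.50 (Actc1) to 3.95 ± 1.45 (Myl7), with Nppa at 1.47 ± 1.57. Of the 9 genes 0 had separate groups, against 14.8% of all genes. The mean over the 10 genes differed by 2.29, by 3.74 without PBS 2 and by 1.26 without PBS 1. Of the 65 other cardiac genes 0 were called in limma, where 2.06% of all genes were called higher and 0.821% lower. Of these 65 genes 30 had an unadjusted p under 0.05, against 2873 of all 14004 genes tested. A higher mean was found for 61, against 51.0% of all genes, and the median was 1.26 against 0.01 over all genes. Without PBS 2, 44 of the 65 genes were called, and with array weights 40. All genes called also went up, from 403 to 1597 and to 2557. Pairing libraries by their number (a replicate block over PBS 1 to 3 and OVA/LPS/GGsTop 1 to 3, in which OVA/LPS/GGsTop 4 and the third group are dropped) gave 62 genes called, against 14 in the same 6 libraries without the pairing and 403 in the fit of all 11. With the same FPKM total the calls over all genes were 250 higher and 243 lower, against 288 and 115.

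**Figure D3:**
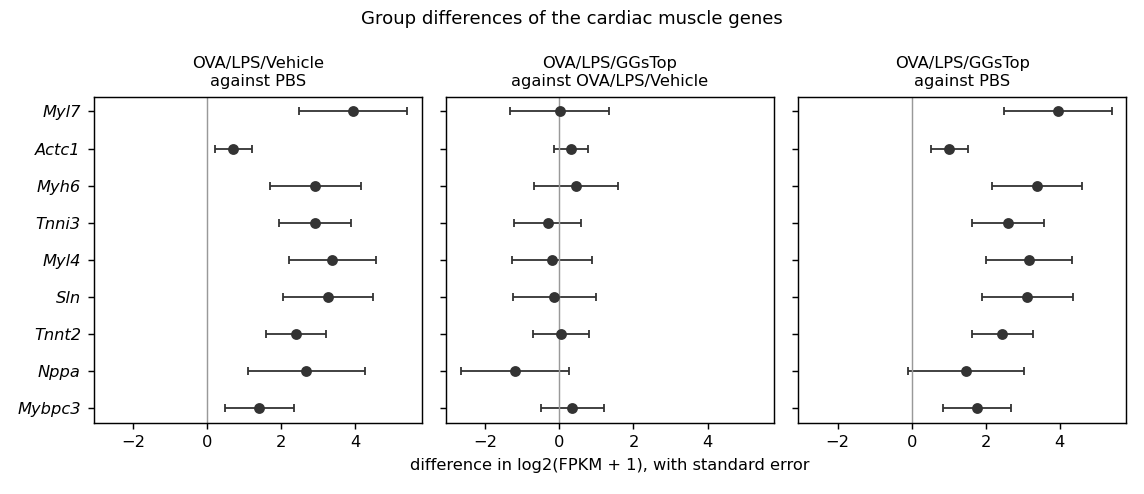
Difference of each measured gene between the groups on the log2(FPKM + 1) scale (horizontal axis) with its standard error from limma, 1 panel per comparison. Both comparisons with PBS lie right of 0, between 0.71 and 3.95, and the differences of OVA/LPS/GGsTop from OVA/LPS/Vehicle straddle 0.

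The genes whose pattern over the 11 libraries was most like the mean of the 10 were mostly muscle genes. The 10 with the highest Pearson correlation were Actn2, Srl, Smyd1, Hrc, Mybphl, Ckmt2, Eef1a2, Pgam2, Cox6a2 and Mb, with correlations of 0.992 to 0.996. Actn2, which cross-links actin at the Z-disc, ran from 0.280 to 46.5 FPKM, Hrc, a calcium-binding protein of the sarcoplasmic reticulum, from 0.103 to 34.8 FPKM, and Srl, also of the reticulum, from 0.511 to 28.5 FPKM. Of these 10 genes 7 were in the cardiac lists, and 24 of the first 50 were. In all, 176 of 13995 genes (1.26%) had a correlation above 0.9, against 17 of 24 sarcomere genes, 10 of 17 calcium and channel genes, 8 of 12 regulators and 6 of 8 energy genes. The natriuretic peptide system was split, with 1 of 4 genes above 0.9, 2 below 0 and a median of 0.13. Corin and Nppb correlated with the 10 genes at 0.92 and 0.73, and the receptor genes Npr1 and Npr3 at -0.78 and -0.46. The choice of the first 10 depended on the measure, since 3 stayed among them with Spearman's rank correlation, 3 without PBS 1 and 5 in the 8 OVA/LPS libraries.

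**Figure D4:**
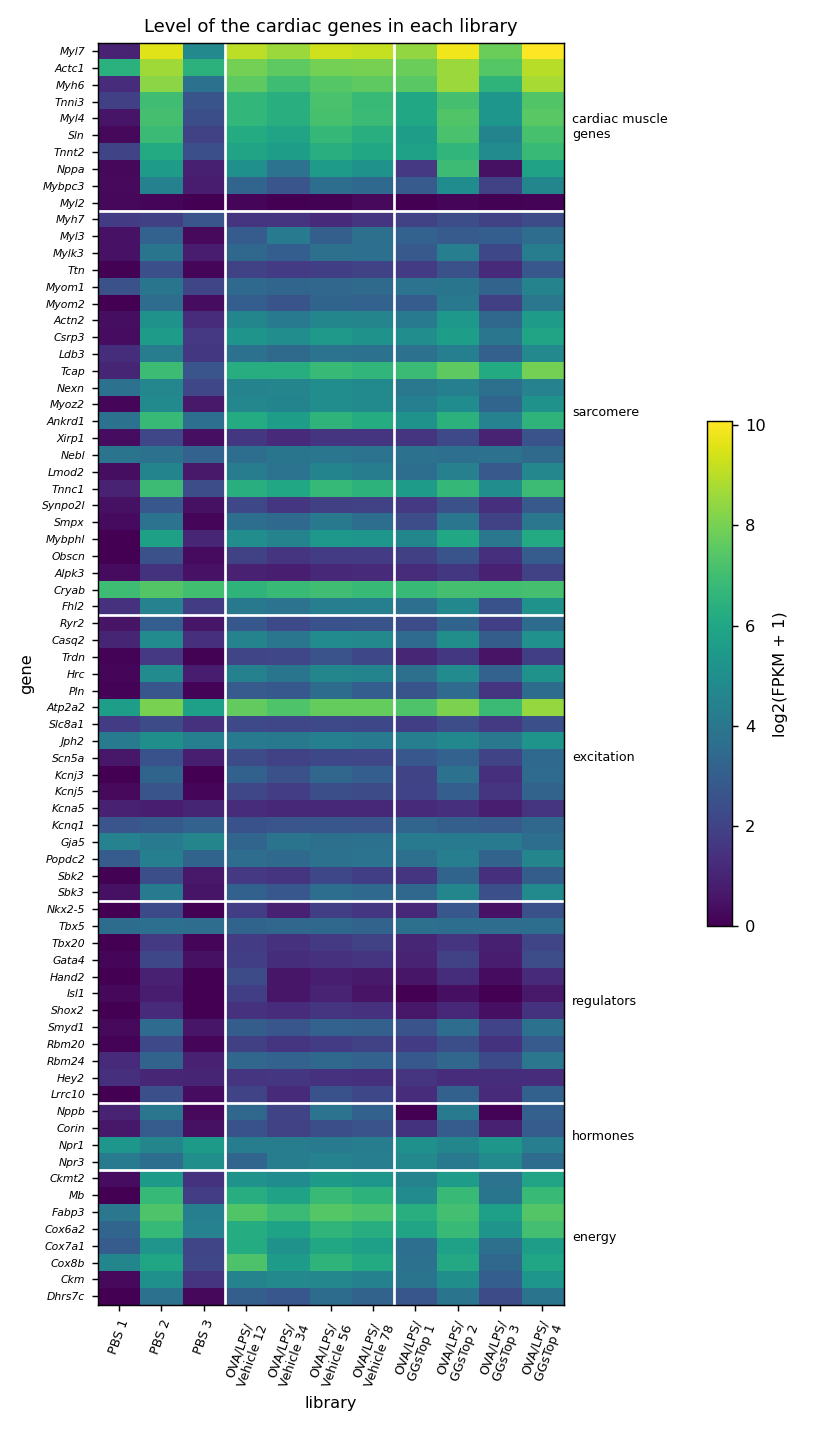
Level of the 10 genes and of the 65 other cardiac genes above the minimum (rows, by function) in the 11 libraries (columns), as log2(FPKM + 1) in colour. The dark columns of PBS 1 and PBS 3 run through most genes, and Cryab, Tbx5, Npr1 and Gja5 are among those that do not follow them.

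Other tissues of the chest were measured in the same libraries, and the heart muscle genes followed some of their markers. The sum of 20 skeletal muscle genes was 21.1, 158 and 31.9 FPKM in PBS, 116 to 236 FPKM in OVA/LPS/Vehicle and 101, 166, 66.3 and 218 FPKM in OVA/LPS/GGsTop. Its highest library was OVA/LPS/Vehicle 34, in which Acta1 was at 58.0 FPKM and the 10 genes had the lowest sum of their group, 980.0 FPKM. Of that list, Myl1, Eno3 and Ckm followed the 10 genes, with correlations of 0.978, 0.983 and 0.988, and Ckm is also in the cardiac energy list. The median over the 13 of 20 skeletal muscle genes above the minimum was 0.52. The skeletal myosin genes Myh1, Myh2 and Myh4 reached at most 0.0399 FPKM in PBS and OVA/LPS/GGsTop. In OVA/LPS/Vehicle they reached 5.96, 0.248 and 1.63 FPKM. In PBS and OVA/LPS/GGsTop the sum is therefore not read as an amount of skeletal fibres. The 12 smooth muscle genes summed to 747 to 1763 FPKM and were highest in OVA/LPS/GGsTop 4, which also had the highest sum of the 10 genes, and their median correlation was 0.45. The 6 fat genes had a median correlation of 0.60, with sums of 25.6 to 679 FPKM.

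In the opposite direction, red blood cell genes had a median correlation of -0.87, endothelial genes of -0.81 and alveolar genes of -0.64 with the 10 genes. The 5 red blood cell genes summed to 5768 and 7724 FPKM in PBS 1 and 3, to 3001 FPKM in PBS 2 and to 1399 FPKM in OVA/LPS/GGsTop 4, the library with the most heart muscle RNA. Alveolar markers summed to 10807 and 15501 FPKM in PBS 1 and 3 and to 4237 to 11401 FPKM elsewhere. The 5 thyroid genes and the 3 measured thymus genes had median correlations of 0.21 and 0.18, and OVA/LPS/Vehicle 78, without thyroid RNA (0.528 FPKM in sum), held 1455 FPKM of the 10 genes against 1349, 980.0 and 1604 FPKM in OVA/LPS/Vehicle 12, 34 and 56, which had it. The 4 measured mesothelial genes, 6 airway epithelial genes and 4 measured cartilage genes had median correlations of 0.21, 0.78 and 0.36. What part the makeup of the dissected tissue had in the differences between the groups was not tested.

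**Figure D5:**
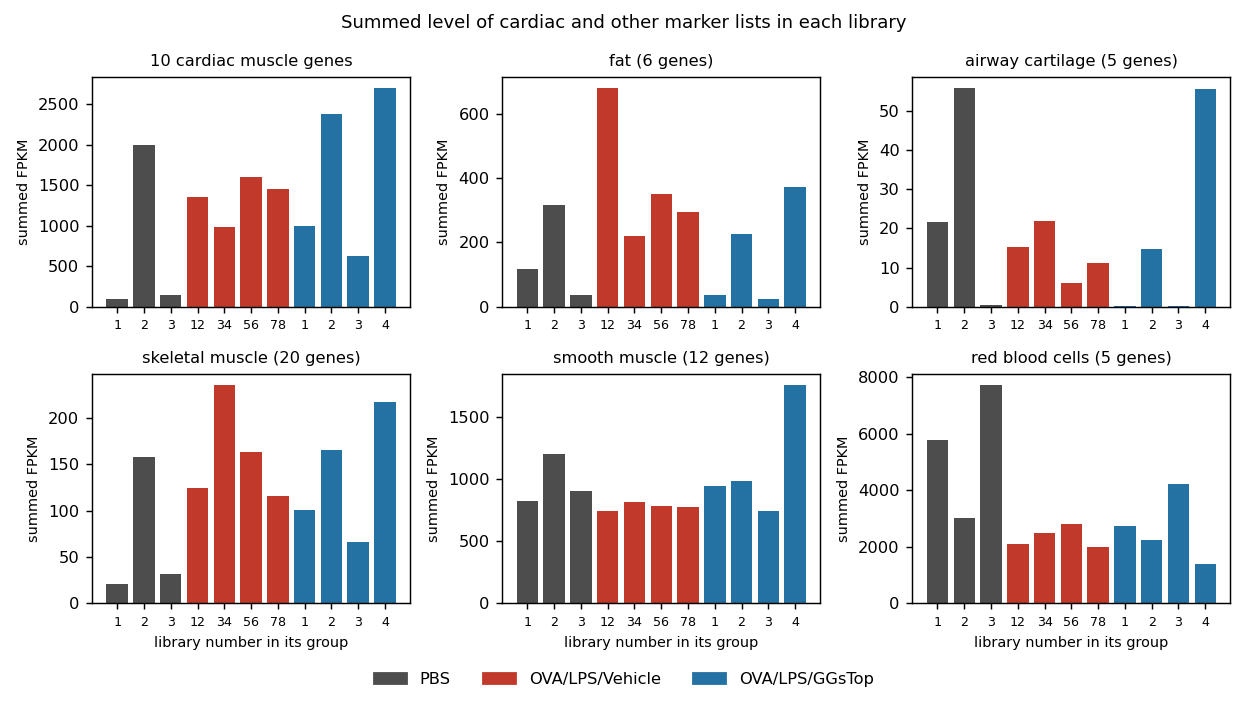
Summed FPKM of the 10 genes and of 5 marker lists in each library (vertical axes start at 0, horizontal axes give the library number in its group, colour the group). The 10 genes range from 96.4 FPKM in PBS 1 to 2697 FPKM in OVA/LPS/GGsTop 4, fat and cartilage are low in PBS 3 and OVA/LPS/GGsTop 1 and 3, and red blood cell genes are highest in PBS 1 and 3.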

How the data were processed

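Total RNA was reverse transcribed after poly-A selection and sequenced by a service company. The submitters' processing notes name cutadapt 1.15, HISAT2 2.0.5, HTSeq 0.9.1 and the build mm39, without their settings. The authors deposited FPKM per gene, 1 column for each library, and no scaling between libraries was applied here. Identifiers were matched to symbols and exon lengths of GENCODE M21 on GRCm38 (21795 of 21899 genes). FPKM times exon length gave whole fragments within 0.02 for 97.5% of genes, from which depths were taken.

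Values of log2(FPKM + 1) were taken for the 14004 genes whose mean reached 0.5 FPKM, and were fitted over all 11 libraries in limma 3.58.1 (R 4.3.3) with a mean-variance trend, two-sided, with Benjamini-Hochberg adjustment, called at an adjusted p under 0.05. The 3 pairs of groups were compared. Alternatives were a pseudocount of 0.1, other minimum levels, 2 rescalings, no trend, array weights, only the groups compared, a spline correction for GC content, voom on the recovered fragments and each library left out. The genes and lists were chosen with earlier results of these data known. Named were the 10 genes, the 3 highest genes of each other list, up to 10 of the other cardiac genes with the smallest p in each comparison and the 10 most like genes by Pearson correlation. Irx4, Bmp10, Corin, Acta1, Myh1, Myh2 and Myh4 were named in addition, chosen after their values were seen. Numbers of the PBS and OVA/LPS/GGsTop labels were used as a block in an alternative fit, although the labels state no pairing. Deviations from the group means correlated at 0.367, 0.427 and 0.428 between libraries of the same number. PBS 1 with OVA/LPS/GGsTop 3 and PBS 2 with OVA/LPS/GGsTop 4 correlated higher, at 0.457 and 0.637, so these values do not establish a pairing. Numbers of OVA/LPS/Vehicle (12 to 78) match no others. The result of 1 listed gene is not reported here. Scripts were tested on simulated data. Sequences are from RefSeq.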

Additional observations from a re-analysis of the deposited data

Results flagged for a closer look

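Of 72 groups of 4 libraries examined for a library far from the rest, 3 were flagged, and chance flags about 1 in 20. Atp2a2, the sarcoplasmic calcium pump gene, was at 155 FPKM in OVA/LPS/Vehicle 34 and at 198 to 207 FPKM in the other 3 libraries of that group. Trdn was at 4.96 FPKM in OVA/LPS/Vehicle 56 and at 3.33 to 3.49 FPKM in the others. Gja5 was at 11.6 FPKM in OVA/LPS/GGsTop 4 and at 16.6 to 17.3 FPKM in the others.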

How the results depend on the processing

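The mean difference of the 10 genes kept its direction in both comparisons with PBS with a pseudocount of 0.1, a minimum of 1 FPKM, both rescalings, the GC correction, voom values, the replicate block, the median or 5 of the genes in place of the mean of 10, and each library left out. Leaving out 1 library gave 1.33 to 3.81 for OVA/LPS/Vehicle against PBS, 1.26 to 3.74 for OVA/LPS/GGsTop against PBS and -0.39 to 0.37 between OVA/LPS/GGsTop and OVA/LPS/Vehicle, where its sign varied. Genes called ranged from 3064 to 6440, 29 to 1597 and 24 to 1052 in the same order, and other cardiac genes called from 2 to 53, 0 to 44 and 0 to 2. For OVA/LPS/Vehicle against PBS the other cardiac genes called went from 21 to 11 with no minimum, 11 with only the 2 groups, 54 with array weights, 9 with the GC correction and 34 with voom, and all genes called from 5327 to 2904 with the GC correction. Between OVA/LPS/GGsTop and OVA/LPS/Vehicle, 1220 genes became 2181 with the same FPKM total, 698 with the same median, 5214 with array weights, 3525 with only the 2 groups and 56 with the GC correction, and the 3 cardiac genes became 1 with no minimum, 1 with the same median, 9 with array weights, 5 with only the 2 groups and 0 with the GC correction. For OVA/LPS/GGsTop against PBS, 403 genes became 208 with no minimum, 2557 with array weights and 39 with only the 2 groups, and 0 cardiac genes became 40 with array weights. With the replicate block, which uses 6 libraries, 62 genes and 0 cardiac genes were called, against 14 genes in these libraries unpaired (chosen after seeing the data), and 2 cardiac genes with the GC correction added, and the block turned no direction of the mean difference. PBS 1 and OVA/LPS/GGsTop 3, and PBS 2 and OVA/LPS/GGsTop 4, correlated at 0.457 and 0.637, above the same-numbered pairs. The same FPKM total moved the median of all genes to -0.15 and 0.11 in the first and second comparison. Of the 10 most like genes, 3 remained with Spearman's rank correlation, 5 in the 8 OVA/LPS libraries, 5 without the 2 libraries farthest from the median (both chosen after seeing the data) and 3 to 10 when 1 library was left out. The cause of these changes was not tested. Depth limits Nppa and Nppb, which rested on 0 to 28 fragments in OVA/LPS/GGsTop 1 and 3.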
